A study of Mus musculus with 6 samples.

Results

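Collagen chain genes encode the subunits of the collagens, and 44 of them could be read on the arrays, among 22180 genes whose probe sets carry exactly 1 gene symbol. They were chosen by symbol alone (Col, a type number, a, a chain number), and for a gene with several probe sets the brightest, averaged across the 6 arrays, was taken. The members comprise 11 fibrillar chains, 8 basement membrane chains and 25 others. The 6 arrays came from 3 transgenic and 3 wild type lesions, 1 macrodissected brain lesion per array. The transgenic mice carry a construct for driving GFAP+ astrocytes that do not divide into apoptosis, and the wild type mice do not. The labels give all the rest as shared: mice 5 to 6 weeks old, a demyelinating lesion made with LPC, a lipid that strips myelin, CID, the compound that starts the ablation, 48 hours later, and collection 7 days after the lesion. The sources used here give neither the promoter of the construct nor whether each lesion had its own animal. The p-values thus cover the spread between these lesions alone, which may be technical, in whole for wild type lesions and in part for transgenic ones. Sex-linked transcripts, given below, differed between the transgenic lesions, which thus came from more than 1 animal. The question behind the series, by its title, is how astrocytes act on myelin formation in development and on early repair.

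Collagens are secreted proteins in which long stretches of glycine-rich repeats wind around each other, and different chains assemble into different structures. Fibrillar collagens form the tough fibres of scars and connective tissue, type IV collagen forms the sheet of basement membranes, and type VI collagen forms fine beaded filaments. In the healthy brain, fibrillar collagens are largely restricted to the meninges and to fibroblasts around vessels, while basement membrane collagens line blood vessels. Some unusual collagens are made by neurons.

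The arrays themselves set the frame for these genes. Across all probe sets, the wild type arrays were more alike than the transgenic ones, with a median SD of a probe set of 0.26 in transgenic and 0.15 in wild type lesions. The median log2 intensity was lowest in transgenic replicate 2, at 5.34, and reached 5.59 at most. Y-linked transcripts were high and Xist was low in transgenic replicates 1 and 3, and the reverse held in transgenic replicate 2 and all wild type lesions. Xist stood at 4.67, 9.14 and 4.42 in transgenic lesions and at 9.49, 9.30 and 9.30 in wild type lesions. Genotype and sex were therefore unevenly combined. The mean level of 4 striatal neuron markers was 5.95 to 6.31 in transgenic lesions and 6.03, 7.87 and 8.48 in wild type replicates 1, 2 and 3. The part of the dissected region in the differences below was not tested. The targeted cells were checked through Gfap, the astrocyte filament gene, which stood at 8.91, 8.82 and 9.24 in transgenic lesions and at 9.83, 9.18 and 9.09 in wild type lesions. The groups overlapped for Gfap. Of 9 astrocyte markers, 3 had a higher and 6 a lower mean in transgenic lesions. Among them 2, Sox9 (-0.53) and Gja1 (-0.36), were lower without overlap, where 7.6% of all probe sets were. The median difference of the 9 markers was -0.28, and 0.04 without transgenic replicate 1. Levels are log2 intensities throughout, and differences are transgenic minus wild type on that scale.

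The promoters of Col1a2 and Col6a1 are shown because type I collagen and type VI collagen carry the main patterns below. Each stretch is the 250 bases before the annotated start of the gene, read 5′ to 3′ on the gene's own strand from RefSeq, build GRCm38.p6. Capitals mark matches, on either strand, to CCAAT, to GGGCGG and to GGGAGGG, the letters of the CCAAT box and of common GC-rich promoter elements. The window of Col1a2 is chr6:4505368-4505617 on the plus strand and that of Col6a1 is chr10:76726045-76726294 on the minus strand.
Col1a2: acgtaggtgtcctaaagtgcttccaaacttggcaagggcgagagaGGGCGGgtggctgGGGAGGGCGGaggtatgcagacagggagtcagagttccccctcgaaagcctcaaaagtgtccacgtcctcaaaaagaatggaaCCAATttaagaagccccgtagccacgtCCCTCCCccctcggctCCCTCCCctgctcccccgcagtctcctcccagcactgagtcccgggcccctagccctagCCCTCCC
Col6a1: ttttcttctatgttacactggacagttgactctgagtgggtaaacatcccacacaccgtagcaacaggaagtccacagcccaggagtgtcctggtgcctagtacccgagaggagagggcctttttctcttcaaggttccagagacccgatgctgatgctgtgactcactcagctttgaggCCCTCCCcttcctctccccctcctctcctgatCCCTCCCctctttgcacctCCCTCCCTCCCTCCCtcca

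The Col1a2 stretch held 1 match to CCAAT, 2 to GGGCGG and 4 to GGGAGGG, of which 1 GGGCGG overlapped 1 GGGAGGG. The Col6a1 stretch held 5 matches to GGGAGGG, some overlapping each other, and 0 to either of the other motifs. Promoter windows were found for 35 of the 44 collagen genes. CCAAT occurred in windows of 13 of these 35 genes (37.1%), against 33.8% of all 32851 windows of the same length. GGGAGGG occurred for 17 of them (48.6%), against 19.7% of all windows, and GGGCGG for 21, against 32.7%. Some of the genes had more than 1 window, which raises their chance of a match. These matches describe the letters only.

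Setting transgenic against wild type lesions shows how collagen transcripts stand once astrocytes have been targeted. Collagen transcripts as a class differed little between the groups. Of the 44 members, 15 had a higher and 29 a lower mean in transgenic lesions, and 39 differed by less than 0.25. The median difference was -0.04, against -0.01 over all probe sets. Type VI collagen chains lay on the lower side, several of them at levels below the array medians. Type I collagen varied more between wild type lesions than between the genotypes.

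At an adjusted p under 0.05 in limma, 0 collagen genes were called, as were 0% of all 41345 probe sets. At an unadjusted p under 0.05, 2 members were lower and 0 higher. Over all probe sets 8.87% were past that threshold, 4.82% on the higher and 4.05% on the lower side. The groups did not overlap for 4 members, 1 higher and 3 lower. That is 9.09% of the members, where 16.1% of all probe sets did not overlap, 8.54% higher and 7.6% lower. Both shares of members were under those of the whole table. The 95% interval of the difference lay between -1 and 1 for 41 of the 44 genes, and between -0.5 and 0.5 for 18 of them. In whole lesions, fewer cells of a type and less RNA per cell cannot be told apart, and this holds for every difference below.

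**Figure D1:**
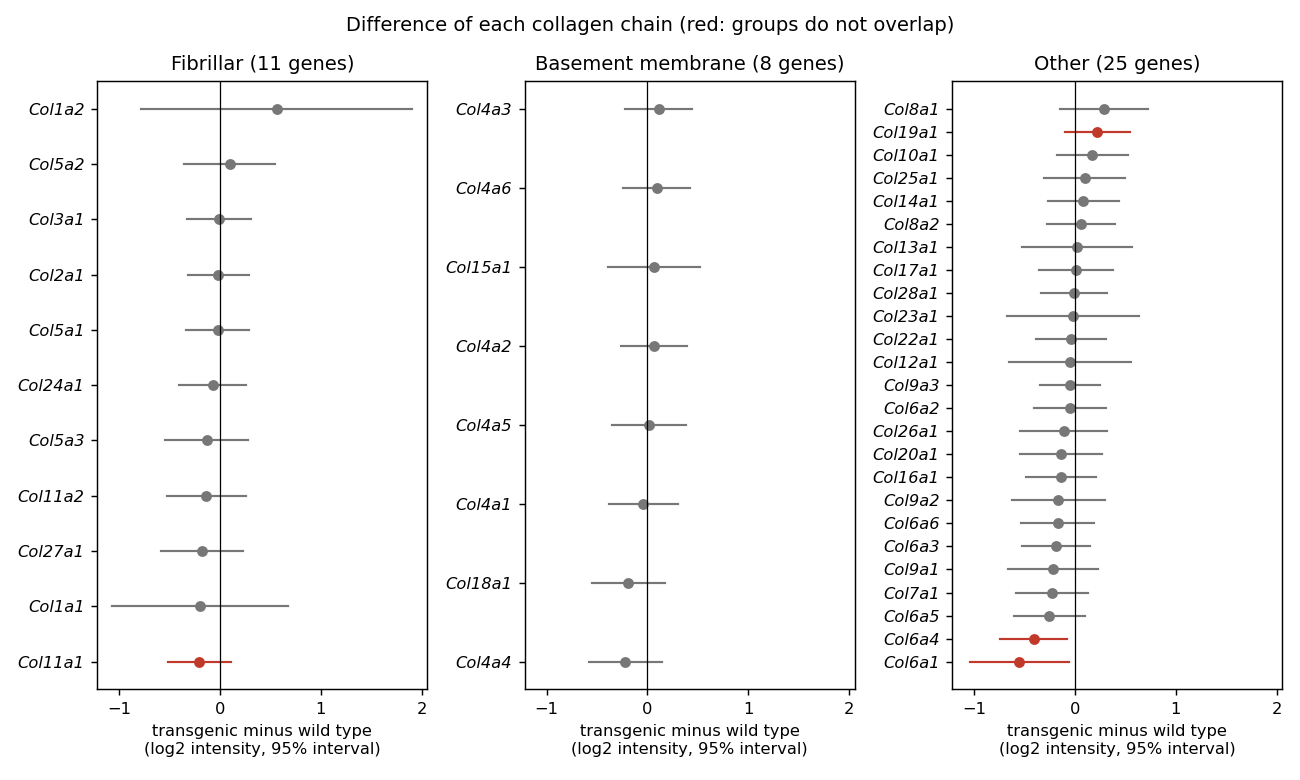
Difference of each of the 44 collagen chains (transgenic minus wild type, log2 intensity) with its 95% interval, in 3 panels for fibrillar, basement membrane and other chains. Red marks the 4 genes whose groups do not overlap; Col6a1 and Col6a4 are the only intervals that leave out 0, and the intervals of Col1a1 and Col1a2 are the widest.

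The fibrillar chains include the genes that mark scar-forming tissue. Of 11, 2 had a higher and 9 a lower mean in transgenic lesions (median difference -0.07). None reached an unadjusted p under 0.05.

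Col1a1 and Col1a2 encode the chains of type I collagen, the main fibre of scars. Col1a1 stood at 6.72, 6.85 and 6.92 in transgenic lesions and at 6.66, 7.96 and 6.46 in wild type lesions. Col1a2 stood at 8.05, 7.68 and 7.76 in transgenic lesions and at 6.56, 8.76 and 6.48 in wild type lesions. The transgenic lesions were close together for both chains, while wild type replicate 2 lay above all other arrays and wild type replicate 3 below them. The SD of Col1a2 was 0.19 in transgenic and 1.30 in wild type lesions (n = 3 each). Its mean difference was 0.56 (SE 0.57, 95% interval -0.78 to 1.91, adjusted p 0.824 in limma), and that of Col1a1 was -0.20 (95% interval -1.07 to 0.67).

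Wild type replicate 2 decided these values. Without it, the brighter Col1a2 probe set was 2.48-fold higher in transgenic lesions (difference 1.31, 95% interval 0.84 to 1.78), with an adjusted p of 0.799 in limma. Every transgenic array then lay above both remaining wild type arrays. The array left out was the highest for this gene, so the interval is no independent test. In that fit the difference of Col1a1 turned to 0.27 (95% interval -0.17 to 0.70), again with all transgenic arrays above. The groups then did not overlap for 7 of 44 members, against 22.7% of all probe sets. The number of members at an unadjusted p under 0.05 was 2, against 5.45% of all probe sets. Leaving out wild type replicate 1 or 3 instead lowered the Col1a2 difference to 0.21 or 0.17. A second, dimmer probe set of Col1a2 stood at 6.54, 6.68 and 6.82 in transgenic lesions and at 6.41, 7.01 and 6.14 in wild type lesions. The order of the wild type lesions was the same there, and its difference was 0.16 with all arrays. No difference without wild type replicate 2 is given for that probe set.

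**Figure D2:**
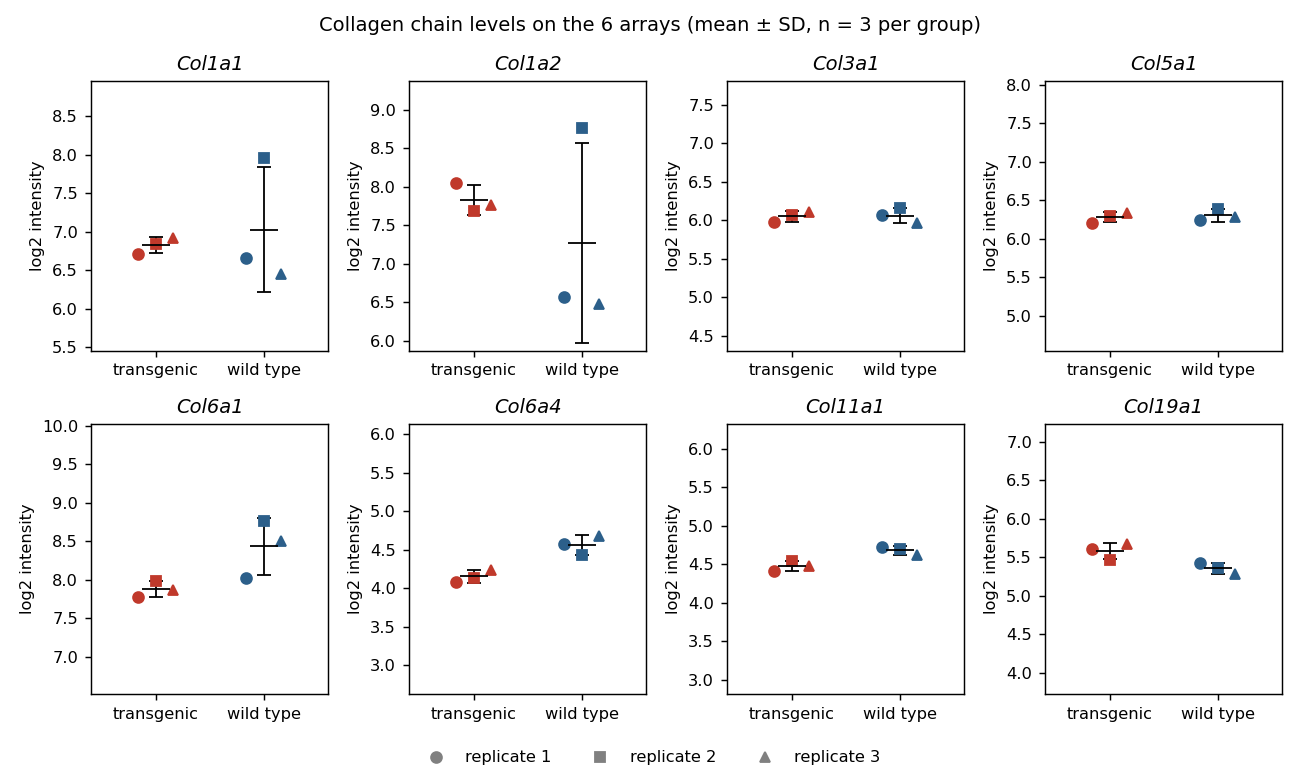
Log2 intensity of 8 collagen genes on each array, transgenic lesions in red and wild type lesions in blue, with the replicate number as the symbol and the mean ± SD (n = 3) as a bar; each panel spans the same range. Col1a1 and Col1a2 are high in wild type replicate 2, at 7.96 and 8.76, while Col3a1 and Col5a1 are nearly level across all 6 arrays.

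Other fibrillar chains that usually accompany type I collagen varied far less across the arrays. Col3a1, the chain of type III collagen in reticular fibres, stood at 5.98, 6.06 and 6.11 in transgenic lesions and at 6.07, 6.16 and 5.96 in wild type lesions. Col5a1, a chain of the type V collagen that starts type I fibrils, stood at 6.20, 6.30 and 6.33 in transgenic lesions and at 6.24, 6.39 and 6.28 in wild type lesions. Both genes ranged over about 0.20 or less, 0.196 for Col3a1 and 0.187 for Col5a1. Wild type replicate 2 was the highest array for each of them, by a small margin. Without detection calls, how far the signal of either gene stood above background is not known. A dimmer probe set of Col5a1 disagreed with the first: it differed by 0.18 and its groups did not overlap, whereas the first differed by -0.02.

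Col5a2, the partner chain of Col5a1, stood at 5.27, 5.25 and 4.97 in transgenic lesions and at 4.75, 5.35 and 5.10 in wild type lesions. Wild type replicate 2 was again highest for Col5a2 and wild type replicate 1 lowest. Col5a3, a further type V chain, differed by -0.13.

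The remaining fibrillar chains are best known from cartilage or occur as minor fibrillar types. Col11a1, a chain of the type XI collagen of cartilage fibrils, was the only fibrillar gene without overlap, at 4.41, 4.55 and 4.48 in transgenic lesions against 4.73, 4.70 and 4.62 in wild type lesions. Its difference was -0.20 (SE 0.13, adjusted p 0.708 in limma), and all its values lay below the array medians. The partner chain Col11a2 differed by -0.14 (adjusted p 0.858) and overlapped. Col2a1, the main fibrillar collagen of cartilage, was level at 6.32 to 6.42 on all arrays. Col27a1 differed by -0.18 (SE 0.17, adjusted p 0.814 in limma) and Col24a1 by -0.07, both with overlapping groups.

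Basement membrane chains differed by a median of 0.08 in either direction, against 0.13 for fibrillar and 0.14 for other chains. Of 8 genes, 5 had a higher and 3 a lower mean in transgenic lesions (median difference 0.04), ranging from -0.22 to 0.11. None of the 8 lacked overlap and none reached an unadjusted p under 0.05.

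Col4a1 and Col4a2 encode the ubiquitous type IV collagen of vessel walls and are transcribed away from each other from a shared region. Their promoter windows are given here from 250 bases before to 50 bases after the annotated start. They are chr8:11312777-11313076 on the minus strand for Col4a1 and chr8:11312555-11312854 on the plus strand for Col4a2 (GRCm38.p6). These windows overlap by 78 bases, and would not overlap without the bases after the starts. Col4a1 stood at 6.20, 6.08 and 5.88 in transgenic lesions and at 6.11, 6.15 and 6.02 in wild type lesions. Col4a2 stood at 5.61, 5.75 and 5.72 in transgenic lesions and at 5.74, 5.49 and 5.65 in wild type lesions. The differences of this pair were -0.04 and 0.06, with intervals of -0.39 to 0.30 and -0.27 to 0.39.

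The other type IV chains belong to specialised basement membranes such as that of the kidney filter. Col4a4 differed by -0.22 (SE 0.15, adjusted p 0.728 in limma), its partner Col4a3 by 0.11 (adjusted p 0.863). The X-linked pair Col4a5 and Col4a6 differed by 0.01 and 0.09 (adjusted p 0.893 for Col4a6). With inferred sex as a covariate, these differences were 0.10 for Col4a5 and 0.20 for Col4a6. Col15a1 and Col18a1 encode collagens with long sugar-bearing segments beside the basement membrane. Col18a1, whose end fragment is endostatin, differed by -0.19 (SE 0.15, adjusted p 0.772 in limma), and Col15a1 by 0.07. Transgenic replicate 1 was the highest array for Col15a1, at 5.47, with 4.86 and 4.93 on the other transgenic arrays and 4.92 to 5.11 in wild type lesions.

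Endothelial and mural cell markers, which mark the vessels that carry these membranes, lay on both sides of 0. The 12 endothelial markers ranged from -0.44 to 0.30. Of them 2, Emcn (higher) and Slc2a1 (lower), did not overlap, where 16.1% of all probe sets did not. The median difference of the 12 was 0.01, with list means of 5.74 to 6.04 in transgenic and 5.88 to 5.97 in wild type lesions. The 12 mural markers ranged from -0.34 to 0.18 with 0 lacking overlap. Their median difference was 0.02, with list means of 6.06 to 6.15 in transgenic and 6.06 to 6.18 in wild type lesions.

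The largest differences among the remaining 25 genes concerned beaded filament collagens, which are type VI and the related type XXVIII. All 7 of these chains had a lower mean in transgenic lesions (median difference -0.19). The mean levels of Col6a3, Col6a4, Col6a5 and Col28a1 lay below 5.34, the lowest array median. A filter that kept probe sets above the median mean left 3 of the chains, all lower, with a median of -0.17. Col28a1 turned to the higher side after quantile normalization and without transgenic replicate 1, wild type replicate 1 or wild type replicate 2. Col28a1 and Col6a2 both turned after median centring and without transgenic replicate 2, and Col6a6 turned with them under array weights. The median was -0.33 with inferred sex and -0.12 on log2(value + 16). The groups did not overlap for 2 of the 7 genes, both lower, where 7.6% of all probe sets were lower without overlap.

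Col6a1, which encodes an obligatory chain of type VI collagen, stood at 7.77, 7.99 and 7.87 in transgenic lesions and at 8.03, 8.76 and 8.51 in wild type lesions. All transgenic arrays lay below all wild type arrays, the nearest by 0.03. The gene was 1.47-fold lower in transgenic lesions (difference -0.55, SE 0.21, adjusted p 0.524 in limma), and leaving out single arrays kept the difference between -0.76 and -0.39, but the 95% interval included 0 without transgenic replicate 1 or 3 and without wild type replicate 2 or 3. A second Col6a1 probe set differed by -0.32 with overlapping groups, since transgenic replicate 2 stood at 7.83 there against 7.77 to 7.91 in wild type lesions. Wild type replicates 2 and 3, the highest for Col6a1, were also the arrays with high striatal neuron markers, whose list mean was 5.95 to 6.31 in transgenic lesions and 6.03, 7.87 and 8.48 in wild type replicates 1, 2 and 3. The part of the dissected region in this difference was not tested.

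The chains that must join Col6a1 to form the filament differed less. Col6a2 stood at 6.31, 5.95 and 6.27 in transgenic lesions and at 6.26, 6.20 and 6.22 in wild type lesions. Col6a3 stood at 4.97, 4.88 and 4.80 in transgenic lesions and at 5.23, 5.03 and 4.95 in wild type lesions. Their groups overlapped, with differences of -0.05 and -0.19.

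Col6a4, Col6a5 and Col6a6 encode alternative chains that can take the place of Col6a3. Col6a4 stood at 4.08, 4.14 and 4.24 in transgenic lesions and at 4.58, 4.43 and 4.68 in wild type lesions. All transgenic arrays lay below all wild type arrays. The gene was 1.33-fold lower in transgenic lesions (difference -0.41, SE 0.14, adjusted p 0.497 in limma). Col6a5 differed by -0.25 (SE 0.15, adjusted p 0.675 in limma) and Col6a6 by -0.17, both with overlapping groups. Col28a1, the type XXVIII chain, differed by -0.01. The levels of Col6a4 lay well below the array medians, and without detection calls it is not known whether its signal stood above background.

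The fibril-associated collagens attach to the surface of fibres or act on their own. Of 9 genes, 2 had a higher and 7 a lower mean in transgenic lesions. Col19a1, which neurons make and which acts in synapse formation in mice, was the only collagen gene whose transgenic arrays all lay above the wild type arrays. It stood at 5.60, 5.47 and 5.67 in transgenic lesions and at 5.42, 5.37 and 5.28 in wild type lesions, a difference of 0.22 (SE 0.14, adjusted p 0.692 in limma). Its mean level, 5.47, exceeded the lowest array median, 5.34, but no other array median. With inferred sex as a covariate the difference was 0.11. Beside Col19a1, 8 of 9 neuron markers had a higher mean in transgenic lesions (median difference 0.16), with list means of 9.16 to 9.61 in transgenic and 9.05 to 9.38 in wild type lesions. None of the 9 lacked overlap between the groups or reached an unadjusted p under 0.05 in limma. Without transgenic replicate 2 that median was 0.04, and without transgenic replicate 1 it was 0.32. All 4 striatal neuron markers, by contrast, had a lower mean in transgenic lesions, with differences from -1.49 to -1.09. The part of neuron content in the Col19a1 difference was not tested.

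Col14a1, which binds to type I fibrils, was the other fibril-associated gene with a higher mean, by 0.08. The type IX chains of cartilage, Col9a1, Col9a2 and Col9a3, differed by -0.22, -0.16 and -0.05. Col20a1 and Col16a1 each differed by -0.14 and Col22a1 by -0.04. Col12a1, a further coat protein of type I fibrils, differed by -0.05, but its transgenic values of 5.12, 6.13 and 5.85 spanned more than the wild type values of 5.84, 5.72 and 5.68.

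The short-chain collagens form hexagonal networks, and all 3 had a higher mean in transgenic lesions. Col8a1, made by vessel wall cells, stood at 5.06, 5.57 and 5.57 in transgenic lesions and at 5.20, 5.14 and 4.98 in wild type lesions. Transgenic replicate 1 fell among the wild type values, and the difference was 0.29. Col10a1, of growing cartilage, differed by 0.17 and Col8a2 by 0.06.

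The transmembrane collagens stay in the cell membrane and act in adhesion. Their mean differences were small, at 0.10 for Col25a1, which neurons express, 0.02 for Col13a1, 0.01 for Col17a1 and -0.02 for Col23a1. Transgenic lesions differed widely from each other in some of them. Col23a1 stood at 6.36, 5.21 and 5.87 in transgenic lesions and at 5.89, 5.93 and 5.68 in wild type lesions. Col13a1 stood at 6.37, 5.59 and 6.22 in transgenic lesions and at 6.13, 6.17 and 5.82 in wild type lesions. In both genes transgenic replicate 1 was the highest and transgenic replicate 2 the lowest array. Of the last members, Col7a1, the anchoring fibril collagen of skin, differed by -0.23 and Col26a1 by -0.11.

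Most collagen genes varied little from lesion to lesion. The range over the 6 arrays was below 0.5 for 27 of the 44 genes and above 1 for 4 of them, which were Col1a1, Col1a2, Col12a1 and Col23a1. The median SD of a member was 0.14 in transgenic and 0.13 in wild type lesions. The mean level of 16 members lay below 5.34, the lowest array median, so that the small differences of these genes cannot be read as equal expression. The mean level of all fibrillar chains was 6.08, 5.98 and 5.97 in transgenic lesions and 5.89, 6.33 and 5.89 in wild type lesions. Wild type replicate 2 stood above all other arrays in this mean as well.

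**Figure D3:**
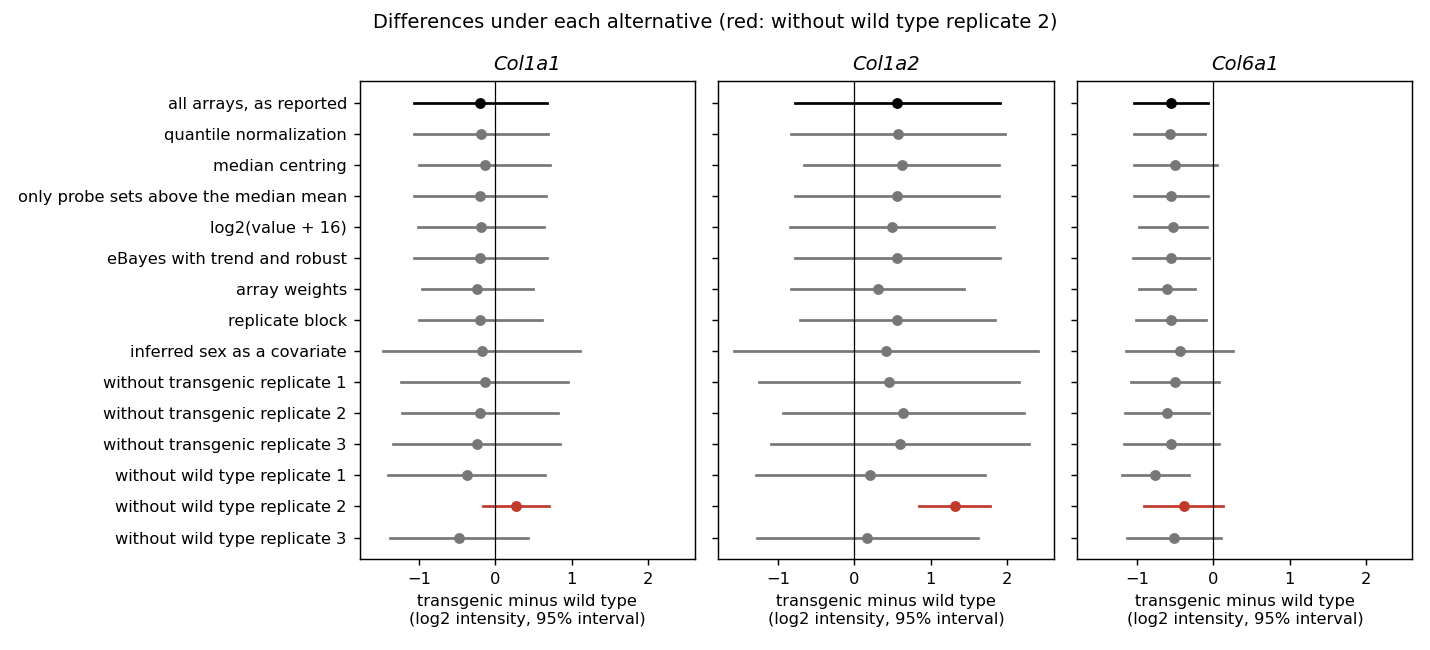
Difference of Col1a1, Col1a2 and Col6a1 (transgenic minus wild type, log2 intensity) with its 95% interval under every alternative setting, with the reported fit in black at the top. Without wild type replicate 2, in red, the Col1a2 difference reaches 1.31 and that of Col1a1 turns positive, while the Col6a1 difference stays below 0 in all settings shown, with intervals that include 0 in 6 of them.

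Collagen chains need enzymes and chaperones in the endoplasmic reticulum before they can be secreted. Of 19 such genes, 6 had a higher and 13 a lower mean in transgenic lesions (median difference -0.06). None passed the adjusted threshold. At an unadjusted p under 0.05 there were 2 of 19, P4ha1 and Plod1, where 8.87% of all probe sets reached it. The groups did not overlap for 7 of 19, 2 higher and 5 lower, against 16.1% of all probe sets. P4ha1, the catalytic subunit that hydroxylates proline, stood at 7.41, 7.84 and 7.75 in transgenic lesions and at 8.46, 8.09 and 8.11 in wild type lesions (difference -0.55, SE 0.18, adjusted p 0.491 in limma). P4hb, its partner subunit, differed by -0.35 (adjusted p 0.574), Plod1, which hydroxylates lysine, by -0.56 (adjusted p 0.561) and Fkbp14, a folding helper, by -0.37 (adjusted p 0.590). All 3 transgenic arrays lay under the lowest wild type array in each of these 4 genes and in Plod2, a further lysine hydroxylase, which differed by -0.26.

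Serpinh1, the chaperone that binds folded procollagen, and P3h1, a proline 3-hydroxylase, were higher without overlap. Serpinh1 stood at 6.12, 6.24 and 6.11 in transgenic lesions and at 5.80, 5.85 and 5.95 in wild type lesions (difference 0.29, SE 0.13, adjusted p 0.592 in limma). P3h1 stood at 5.76, 5.59 and 5.62 in transgenic lesions and at 5.44, 5.46 and 5.50 in wild type lesions. Of 15 genes for propeptide processing and cross-linking, 3 had a higher and 12 a lower mean, with a median of -0.10 and 0 at an unadjusted p under 0.05 in limma. Among them Sparc, a matrix protein that binds collagen, differed by -0.16 (adjusted p 0.864 in limma) and Lox, a cross-linking enzyme, by 0.02.

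Of 10 collagen receptor genes, 8 had a lower mean in transgenic lesions (median difference -0.25, and -0.13 without wild type replicate 1). Ddr1, a receptor kinase activated by collagen, stood at 6.79, 7.06 and 7.06 in transgenic lesions and at 7.87, 7.78 and 7.68 in wild type lesions (difference -0.81, SE 0.15, adjusted p 0.297 in limma). Adgrg1, an adhesion receptor that binds type III collagen and is present on oligodendrocyte precursors, differed by -0.62 (SE 0.19, adjusted p 0.488 in limma). Itgb1, the shared subunit of collagen-binding integrins, differed by -0.34 (adjusted p 0.663). Without wild type replicate 1 the Itgb1 difference was -0.15. Groups did not overlap for these 3 genes, with 7.60 on the nearest arrays of both groups for Itgb1. Over all probe sets, 7.6% were lower without overlap. Ddr1 is also made by oligodendrocytes, and all 8 oligodendrocyte markers were lower without overlap, with a median difference of -0.86. Their list means were 8.41 to 9.04 in transgenic and 9.47 to 9.87 in wild type lesions, and their part in the Ddr1 and Adgrg1 differences was not tested.

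Fibroblasts are the usual source of type I, III and V collagen, and their other matrix genes were set beside the chains. Dcn, a small proteoglycan that coats collagen fibrils, stood at 7.40, 7.82 and 7.19 in transgenic lesions and at 6.11, 6.12 and 5.94 in wild type lesions (difference 1.42, SE 0.19, adjusted p 0.213 in limma). Without transgenic replicate 2, Dcn passed the adjusted threshold in limma, with a difference of 1.24 and an adjusted p of 0.0178. Lum, a related proteoglycan, differed by 0.73, with an adjusted p of 0.404 in limma. The matrix protein Mgp differed by 1.30 (SE 0.17, adjusted p 0.213 in limma), and by 1.25 with an adjusted p of 0.0406 without transgenic replicate 2. In that fit the remaining transgenic lesions were inferred male and all wild type lesions female, so genotype and sex cannot be told apart. Ogn, a proteoglycan of the same family, stood at 5.81, 5.34 and 6.74 in transgenic lesions and at 5.01, 4.79 and 5.07 in wild type lesions. Of the 17 fibroblast and meningeal markers, 12 had a higher and 5 a lower mean in transgenic lesions. Among the lower ones were Pdgfra (-0.40) and Slc6a13 (-0.005). Dcn, Lum, Mgp and Ogn were the 4 whose groups did not overlap, where 16.1% of all probe sets did not. The list had a median difference of 0.17, with list means of 6.12 to 6.31 in transgenic and 5.82 to 6.03 in wild type lesions. The median was 0.07 without transgenic replicate 3 and 0.10 without transgenic replicate 2, wild type replicate 2 or wild type replicate 3.

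On Dcn, Lum, Mgp and Ogn the wild type lesions were close together, unlike on type I collagen. On Fmod and Igfbp2, from the same list, they spread more, with SDs of 0.43 and 0.35. Wild type replicate 2, the highest array for both type I chains, had a fibroblast list mean of 5.82. That mean was 6.03 in wild type replicate 1 and 5.84 in wild type replicate 3. Without wild type replicate 2, the difference was 1.31 for the brighter Col1a2 probe set and 1.45 for Dcn. The chains Col3a1 and Col5a1 stayed within 0.20 on all arrays while Dcn ranged from 5.94 to 7.82. These genes were read on the same 6 arrays, so the values are given side by side with no test of their relation.

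**Figure D4:**
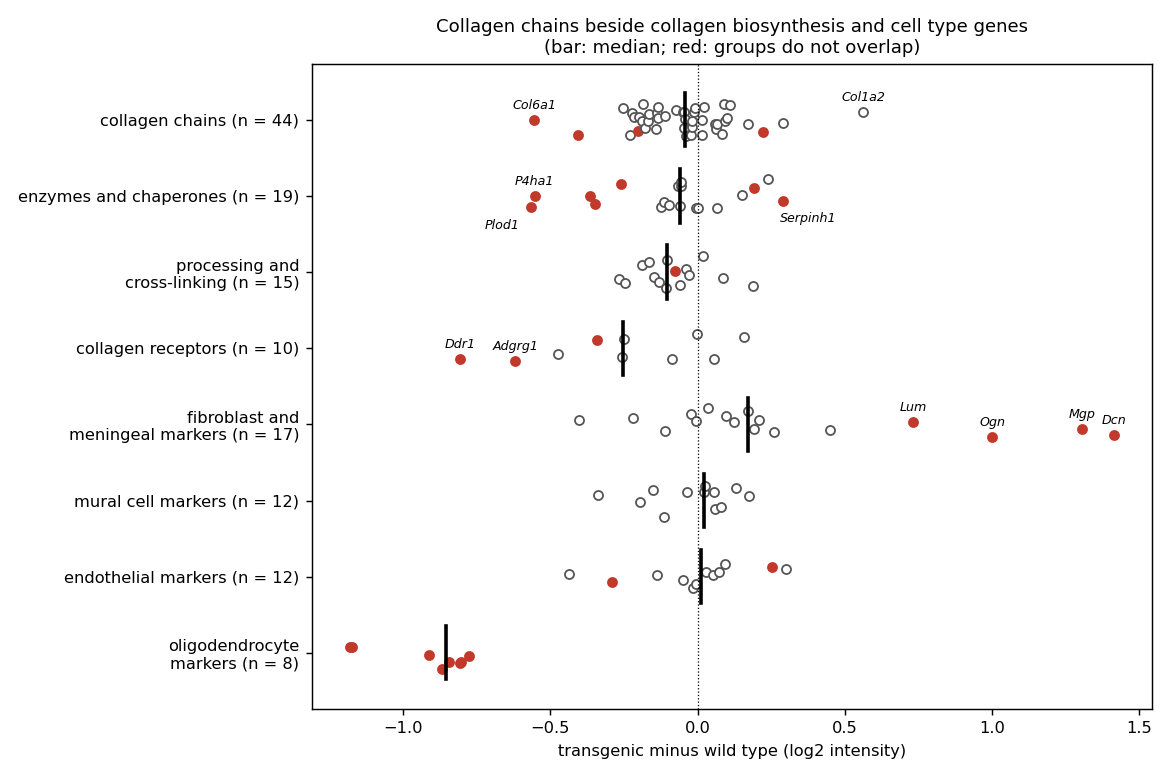
Difference of each gene (transgenic minus wild type, log2 intensity) for collagen chains, collagen biosynthesis and receptor genes, and cell type markers; the bar is the median of a row and red marks genes whose groups do not overlap. Collagen chains centre on -0.04 while Dcn, Mgp, Ogn and Lum lie at 0.73 or more and oligodendrocyte markers centre on -0.86.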

How the data were processed

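The data are 6 Affymetrix arrays, 3 of each genotype. Each deposited value is an intensity that the authors made with RMA, using Expression Console of Affymetrix per the submitters' processing notes. The values are linear and were converted to log2 here, without a pseudocount. The sources used here do not give tool versions, a genome build, detection calls or scan dates, and no batch term was used. Of 41345 probe sets, 23521 carried 1 symbol, 1814 several and 16010 none. All entered limma 3.58.1 in R 4.3.3 (lmFit and eBayes, two-sided, no covariate), with Benjamini-Hochberg adjustment over the whole table. Precision rests on few arrays: the 95% interval of a member extended a median of 0.36 to either side. The fit was first tested on simulated data.

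The members, their classes and 13 gene lists (139 of 150 genes measured) were chosen with earlier results of these data known. An adjusted p is given for members without overlap, for the 4 smallest p-values of each class, and for up to 4 genes of a list plus Dcn, Lum, Serpinh1 and Sparc; the remaining members are described by value. Sex was inferred from Y-linked genes and Xist. Median differences of the lists given no median in the report were -0.54 for 12 phagocyte, -0.02 for 8 choroid plexus, -1.44 for 4 striatal neuron and 1.98 for 4 sex-linked genes. Alternatives covered normalization, a filter on dim probe sets, the log scale, variance moderation, array weights, a replicate block, sex, each array left out, and the choice of probe set.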

Additional observations from a re-analysis of the deposited data

How the results depend on the processing

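The number of collagen genes past the adjusted threshold stayed at 0 under every alternative run. Over all probe sets the count was 0 except with array weights (2611, a fit resting on transgenic replicate 3), with inferred sex as a covariate (1481, resting on transgenic replicate 2) and in the leave-one-out range of 0 to 335, whose upper end left out transgenic replicate 2. Without transgenic replicate 2, genotype and inferred sex coincided. The number of collagen genes at an unadjusted p under 0.05, 2 as reported, was 10 with array weights, 1 with inferred sex, 1 with the dim filter, 0 with median centring and 0 to 2 when single arrays were left out. Deviations of same-numbered arrays correlated at 0.01, -0.10 and -0.07. These values show no sign of pairing by replicate number, but cannot exclude it. With the replicate block the count of collagen genes at an unadjusted p under 0.05 was 1, and no adjusted call changed. The median difference of basement membrane chains, 0.04 as reported, was 0.0817 after quantile normalization, 0.0926 after median centring, -0.0130 with inferred sex and -0.0287 to 0.0479 when single arrays were left out. With inferred sex the median was -0.14 over all members and -0.19 over the other chains, which ranged from -0.133 to 0.00372 when single arrays were left out. Over all members that range was -0.12 to -0.003. Fibrillar medians ranged from -0.07 to 0.004 when single arrays were left out, the upper end without wild type replicate 2. Signs turned for Col4a3 with inferred sex (-0.0131) and for Sparc without wild type replicate 1, in a leave-one-out range of -0.352 to 0.0147. Up to 12 of the 44 members changed sign under a setting, 12 of them with array weights and 10 each with median centring and without wild type replicate 2. Dcn and Mgp passed the adjusted threshold with array weights, with inferred sex and without transgenic replicate 2; Lum, Ogn, P4hb, Ddr1 and Adgrg1 passed it with array weights. Averaging both probe sets moved Col5a1 to 0.08. Using all probe sets of a gene or type IV chains alone left the class medians at their reported values. Among marker lists, single arrays left out moved the median to between -0.44 and 0.04 for astrocyte, -0.76 and -0.11 for phagocyte, -2.12 and -0.87 for striatal neuron and -0.10 and 0.07 for choroid plexus genes; with inferred sex it was 0.0001 for astrocyte and -0.39 for choroid plexus genes. Medians near 0 have no settled direction. Dim probe sets and 3 arrays per group limit what could be seen.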

Other observations

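The height of type I collagen in wild type replicate 2 was shared by a short list of genes, looked up after the collagen values were seen. Among 22180 genes ranked by how far wild type replicate 2 lay above the next array, Col1a1 was number 7, with a gap of 1.03 (log2), and Col1a2 number 13, with a gap of 0.71. Ahead of Col1a1 were Mmp12, a protease of macrophages that cleaves elastin (gap 2.47), Anxa1 (2.12), the scavenger receptor Cd36 (2.12), the lipid carrier Fabp4 (2.03), Atp6v0d2, a proton pump subunit of macrophages and osteoclasts (1.71), and Il7r (1.49). Several olfactory and vomeronasal receptor genes ranked below Col1a1, the first of them Vmn1r103 at number 9. Further down stood Acp5 (0.70) and Ctsk (0.69), lysosomal enzymes of osteoclasts and macrophages, and Ibsp, a bone matrix protein (0.63). Mmp12 stood at 6.55, 5.43 and 5.50 in transgenic lesions and at 6.53, 9.02 and 5.59 in wild type lesions. The phagocyte list mean was 8.51, 7.40 and 7.45 in transgenic lesions and 8.86, 8.22 and 7.56 in wild type lesions, so wild type replicate 2 was not the highest array for phagocyte markers in general.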
